A study of Homo sapiens with 27 samples.

Results

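The collagen chain genes were the rows of the count table whose symbol is COL, a number, A and a further number, and which the annotation marks as protein coding. This rule is by name alone and found 44 of the 61533 genes in the table. By the structure that their chains form, 11 were fibrillar, 10 fibril-associated, 9 of the basement membrane or short-chain networks, 6 of beaded filaments, 4 transmembrane, 2 multiplexins, and 2 (*COL7A1* and *COL26A1*) were grouped as anchoring fibril and other. The libraries came from 92.1, an established *GNAQ* mutant uveal melanoma line, cultured without other cell types in medium with serum and kept in 100 nM of VS-4718 (FAKi), an inhibitor of focal adhesion kinase (FAK), or in the solvent DMSO. The 27 mRNA libraries fell into 9 groups of 3, with DMSO sampled at day 0 and both treatments at days 3, 7, 14 and 21, and media and treatments were renewed through the course. Both plating in triplicate and biological replicates of the whole experiment are described in the methods. The labels give a replicate number only, so p-values measure the spread between these libraries, which may be technical. Total counts per library were between 12161994 and 43651551, and collagen genes took between 0.0378% and 0.0776% of them.

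Collagens are extracellular proteins in which chains wind around each other in a helix, and the genes name the separate chains. Fibrillar collagens bear load in connective tissue, type IV collagen forms the sheet of basement membranes, and type VI collagen forms beaded filaments that link cells to the matrix around them. Integrins bind collagen and laminin and recruit FAK to focal adhesions, where the kinase passes on signals from the matrix. Melanocytes of the eye lie in the uveal stroma, a connective tissue rich in collagen, and pigment cells can themselves make matrix proteins.

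Upstream sequences are shown for the highly counted *COL4A1*, *COL4A2* and *COL6A2* and for *COL24A1*, the member that differed most at day 21, because they differ in layout and base composition. They come from RefSeq promoter windows on GRCh38.p14, in lower case and 5′ to 3′, with capitals for the motifs found on either strand. The motifs searched were the box of the letters CCAAT, the GC box (letters GGGCGG), the TATA box (letters TATAAA), the AP-1 site (letters TGANTCA), the TEAD site (letters GGAATG) and an E-box of pigment cell genes (letters TCANGTG). The motifs found do not overlap each other. *COL4A1* and *COL4A2* are transcribed away from each other, so that the 126 bases between their starts, chr13:110307158-110307283 on the plus strand, precede both genes. For *COL24A1* the 250 bases before the start are chr1:86156773-86157022 on the minus strand. For *COL6A2* they are chr21:46097862-46098111 on the plus strand.
COL4A1 and COL4A2: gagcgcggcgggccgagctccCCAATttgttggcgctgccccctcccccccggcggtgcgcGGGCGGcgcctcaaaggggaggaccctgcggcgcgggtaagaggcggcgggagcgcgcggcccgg
COL24A1: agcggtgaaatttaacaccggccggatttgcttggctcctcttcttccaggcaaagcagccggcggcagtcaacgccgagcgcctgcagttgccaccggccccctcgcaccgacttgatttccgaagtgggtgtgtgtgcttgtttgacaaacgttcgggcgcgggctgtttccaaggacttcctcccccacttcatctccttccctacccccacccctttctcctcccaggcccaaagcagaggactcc
COL6A2: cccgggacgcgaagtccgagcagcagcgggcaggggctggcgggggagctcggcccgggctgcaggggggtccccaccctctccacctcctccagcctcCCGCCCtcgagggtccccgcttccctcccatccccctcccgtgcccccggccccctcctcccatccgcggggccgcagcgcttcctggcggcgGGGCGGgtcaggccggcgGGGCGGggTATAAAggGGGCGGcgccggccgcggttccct
The shared *COL4A1* and *COL4A2* sequence was 80.2% GC with 1 CCAAT box and 1 GC box. The *COL6A2* sequence was 79.6% GC with 4 GC boxes and 1 TATA box, while the *COL24A1* sequence was 60.4% GC and held none of the 6 motifs. Of the members, 32 had a window in the RefSeq table, from 250 bases before to 50 after the start, and in 26 of these the start lay within 10 bases of the start of the counted transcript. The GC box was in 15 of the 26 windows and in 45% of all 35116 windows. The CCAAT box was in 8 of 26 (34.6% of all windows), the TATA box in 6 (11.5%), the TEAD site in 1 (14%), the E-box in 1 (12.5%) and the AP-1 site in 0 (7.71%).

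Some libraries stood apart from their groups. Libraries were compared by the root of the mean squared difference of log2(CPM + 1) over genes, where CPM is a gene's count relative to its library's size after TMM scaling of the 27 libraries together. Replicates of a group were 0.17 to 0.672 apart. FAKi day 7 replicate 1 was only 0.145 from FAKi day 14 replicate 1, less than any pair of replicates, and up to 0.606 from the other FAKi libraries of day 7. DMSO day 3 replicate 1 was 0.207 from DMSO day 0 replicate 3, and DMSO day 21 replicate 3 was 0.251 from DMSO day 3 replicate 3, while the replicates of DMSO at days 3 and 21 were up to 0.672 and 0.601 apart. Whether these 3 libraries carry the right labels was not tested, and their labels were kept. DMSO day 3 replicate 1 was also 0.266 from FAKi day 3 replicate 1. DMSO day 3 replicate 2 was 0.299 from DMSO day 21 replicate 3. Among the DMSO libraries of day 3 replicate 1 lay farthest from the rest, but whether it or the rest are odd was not tested. For DMSO day 21 replicate 3 the column header also has a 7 directly before the 21 that the title gives as the day. Mitochondrial genes took 18.1% of the counts in DMSO day 3 replicate 1 against 9.59% and 8.61% in replicates 2 and 3, and 9.75% in DMSO day 21 replicate 3 against 5.49% in replicates 1 and 2, while the FAKi libraries of day 21 had 10.7% to 11.2%. The pigment cell genes *MITF*, *SOX10*, *PMEL*, *MLANA*, *TYR* and *TYRP1* were at 125 CPM or more in every library, and *DCT* ranged from 2.49 to 28.5 CPM. The 7 fibroblast markers summed to 6.77 to 12.4 CPM over the groups, most of it *LUM* and *TWIST2*, with *DCN*, *THY1*, *FAP* and *TCF21* at 0 in 23 or more libraries. The leukocyte list reached at most 0.625 CPM and the endothelial list at most 0.944 CPM, and *KRT5* had no count. Of the cartilage markers *SOX9* was at 0.775 to 4 CPM and *ACAN* was at 0 in 17 libraries.

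Collagen transcripts were concentrated in a few chains. *COL6A1*, *COL4A2*, *COL6A2*, *COL9A3*, *COL4A1* and *COL18A1* together held 84.9% of all counts on collagen genes. Of the 44 genes, 24 had counts in each of the 27 libraries and 17 had fewer than 100 counts in all. To compare genes, CPM was divided by the length of the counted transcript in kilobases (RPKM). *COL9A3*, an alpha chain of type IX collagen, which decorates fibrils in cartilage, averaged 35.8 ± 11.2 RPKM (SD, n = 27 libraries, as for the next means). *COL6A1* and *COL6A2*, the chains of type VI collagen, averaged 32.7 ± 4.67 and 26.9 ± 6.32 RPKM, and the ranges of these 3 genes overlapped. *COL4A2* and *COL4A1*, the basement membrane chains present in most tissues, followed with 16.4 ± 3.72 and 8.48 ± 2.58 RPKM. A further group held *COL18A1*, whose C-terminal fragment is endostatin, at 3.41 ± 1.38, the basement membrane chain *COL4A5* at 3.18 ± 0.74, and the fibrillar chain *COL27A1* at 2.49 ± 0.69 RPKM. *COL11A2*, *COL1A1*, *COL15A1* and *COL9A2* averaged between 0.792 and 1.06 RPKM, with overlapping ranges, and the other 32 members averaged 0.696 RPKM or less.

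**Figure D1:**
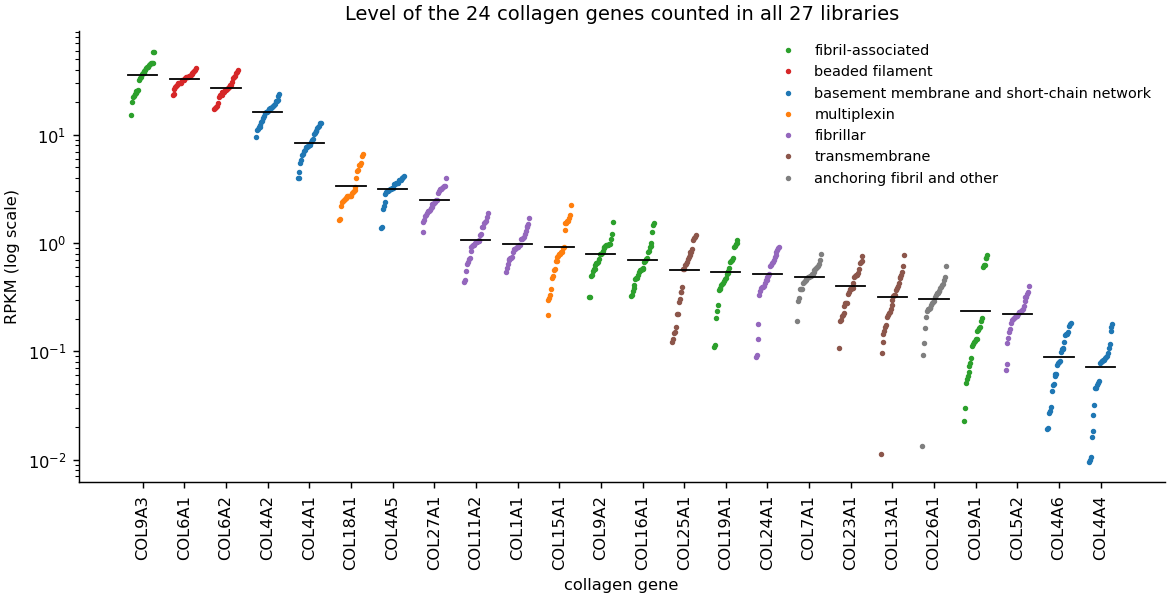
RPKM on a log axis of the 24 collagen genes that had counts in all 27 libraries, ordered by their mean. Each point is a library, sorted by value within a gene, a bar is the mean and colours mark the collagen class. *COL9A3*, *COL6A1* and *COL6A2* lie highest with overlapping ranges.

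By class, the 6 beaded filament genes made up 43.6% of the summed collagen RPKM on average, the fibril-associated genes 27.3% and the network genes 20.6%. The 11 fibrillar genes made up only 3.9%, and ranged from 2.07% to 5.64% over the libraries. *COL6A1* had the highest RPKM of all collagens in 13 libraries, *COL9A3* in 12 and *COL6A2* in 2. At day 14 the mean of *COL9A3* was 23.3 RPKM in DMSO and 41.6 in FAKi, beside 33.6 and 28.7 for *COL6A1*. At day 21 the order of the treatments was the opposite, with *COL9A3* at 52.1 RPKM in DMSO and 23.7 in FAKi and *COL6A1* at 28.7 and 34.0.

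Chains that share a helix were often far apart in level. The best known type VI collagen joins *COL6A1* and *COL6A2* with *COL6A3*, and *COL6A3* had 63 counts in all 27 libraries (0.0110 RPKM), the alternative chains *COL6A5* and *COL6A6* 3 and 26. Type I collagen usually joins *COL1A1* with *COL1A2*. *COL1A1* averaged 0.986 ± 0.30 RPKM, whereas *COL1A2* had 8 counts in all, of which 6 were in FAKi at day 14. In type IX collagen *COL9A2* averaged 0.792 RPKM and *COL9A1* 0.237, next to 35.8 for *COL9A3*. *COL5A2* averaged 0.223 RPKM, and its partner *COL5A1* had 6 counts in all. *COL11A1*, the partner of *COL11A2*, averaged 0.0411 RPKM. *COL3A1*, the main fibrillar collagen of soft tissue, had 15 counts. HOMER counted a single transcript per gene, and reads on exons outside that transcript are not in these values.

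Both basement membrane chains *COL4A1* and *COL4A2* were measured well enough for their ratio to be read in each library. *COL4A1* RPKM was 0.607, 0.607 and 0.585 times that of *COL4A2* in DMSO at day 0, and 0.604, 0.604 and 0.649 times in DMSO at day 14. In DMSO at day 21 the ratios were 0.340, 0.353 and 0.421, and in FAKi at day 21 they were 0.333, 0.369 and 0.420. All 6 libraries of day 21 lay below every library of the other days except DMSO day 3 replicate 3, at 0.321, and the treatments overlapped. For *COL6A1* to *COL6A2* the ratio was 1.58, 1.51 and 1.57 in DMSO at day 0. At day 14 it was 1.57, 1.95 and 1.87 in DMSO against 1.24, 1.30 and 1.32 in FAKi, without overlap. At day 21 it was 0.786, 0.747 and 1.03 in DMSO and 0.912, 0.918 and 1.02 in FAKi, with overlap. The counted transcripts differ in GC share (*COL4A1* 55.2%, *COL4A2* 61.8%, *COL6A1* 63.5%, *COL6A2* 66.4%), and the part of this in the ratios was not tested.

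**Figure D2:**
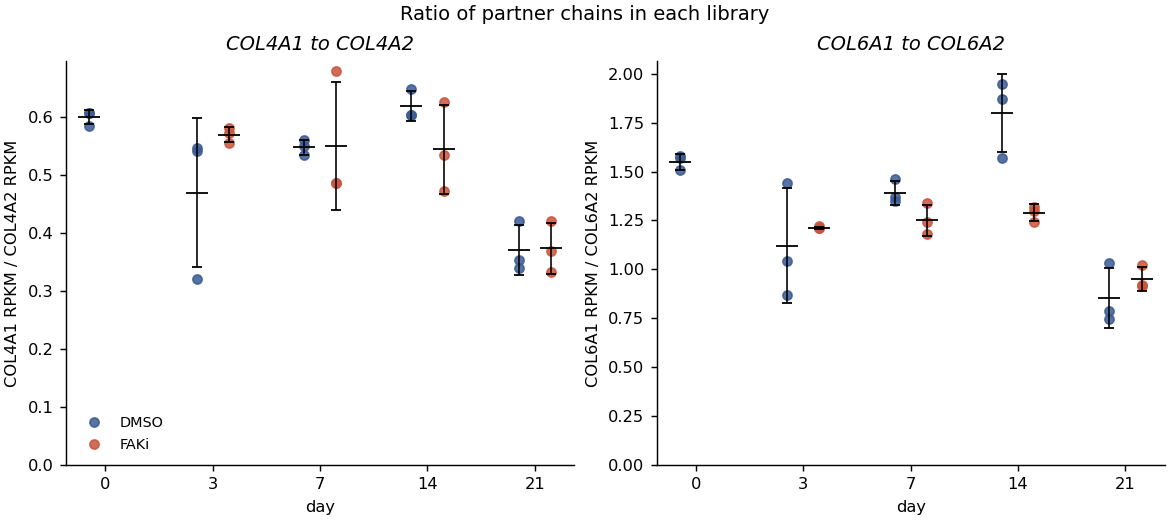
Ratio of *COL4A1* RPKM to *COL4A2* RPKM (left) and of *COL6A1* RPKM to *COL6A2* RPKM (right) by day. Points are libraries, blue for DMSO and red for FAKi, and bars give the mean and SD of 3 libraries. The day 21 libraries of both treatments lie low in both panels, and DMSO lies above FAKi at day 14 for *COL6A1* to *COL6A2*.

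FAKi and DMSO were compared within each day, on the 6 libraries of that day, with edgeR's quasi-likelihood test and Benjamini-Hochberg adjustment over all genes with at least 20 counts in total. A called gene had an adjusted p no higher than 0.05 and a log2 fold change above 1 in size, the limits in the methods. In bulk RNA, fewer cells that express a gene and less RNA per cell cannot be told apart. At day 3 no collagen gene of 28 tested was called (0% of all genes tested), and 6 had an unadjusted p under 0.05 beside 5442 of all 22846 genes. At day 7 no collagen gene of 26 tested was called (0.0269% of all genes), and 3 had an unadjusted p under 0.05 beside 1955 of all 22299 genes. DESeq2 called 0 collagen genes at both days, beside 745 of all genes tested at day 3 (3.26%) and 104 at day 7 (0.466%). Leaving out the library that stood apart from its group made 1 call at each of these days. Without DMSO replicate 1 it was *COL23A1* at day 3 (log2 fold change -1.31, edgeR adjusted p = 0.015), where 12.7% of all genes tested were called. This fit kept DMSO replicates 2 and 3, which lay near DMSO day 21 replicate 3 (0.299 and 0.251). Without FAKi replicate 1 it was *COL15A1* at day 7 (-1.09, edgeR adjusted p = 0.026), where 1.14% were called. At day 14 *COL11A2* was called, 1 of 27 tested (1.66% of all genes, 0.614% higher and 1.04% lower). It stayed called with each library left out, and a second collagen gene was called beside it without DMSO replicate 1 (*COL25A1*), 2 (*COL12A1*) or 3 (*COL9A2*), in fits that called 1.96%, 1.73% and 1.89% of all genes tested. With a loess correction of the counts for length and GC share *COL9A2* was also called (-1.14 ± 0.37, edgeR adjusted p = 0.0486; 1.6% of all genes tested). At day 21 *COL24A1* was called higher and *COL9A3* lower, 2 of 24 tested (5.28% of all genes, 2.58% higher and 2.71% lower). The median log2 fold change of the collagen genes tested was 0.01, -0.16, -0.14 and 0.09 at days 3, 7, 14 and 21, beside -0.02, 0.01, -0.01 and 0.01 for all genes tested. The 3 FAKi libraries did not overlap with the 3 DMSO libraries in 10 of 28 collagen genes at day 3, 7 of 26 at day 7, 7 of 27 at day 14 and 10 of 24 at day 21. Among all genes tested this held for 30.9%, 16.7%, 28.9% and 35.4%. For no collagen gene did the groups lie apart in the same direction on all 4 days.

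At day 21 the deviations of same-numbered FAKi and DMSO libraries from their group means correlated in all 3 pairs, and the numbers were taken to pair them. Deviations within a group cancel out, so the 3 correlations are not independent, and DMSO replicate 3 stood apart. Differently numbered libraries were not compared, so whether the numbers pair cultures was not tested. With the replicate number as a block, 7 collagen genes were called at day 21 (8.94% of all genes tested). They were *COL24A1*, *COL9A2* and *COL5A2*, higher in FAKi, and *COL9A3*, *COL15A1*, *COL19A1* and *COL25A1*, lower.

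**Figure D3:**
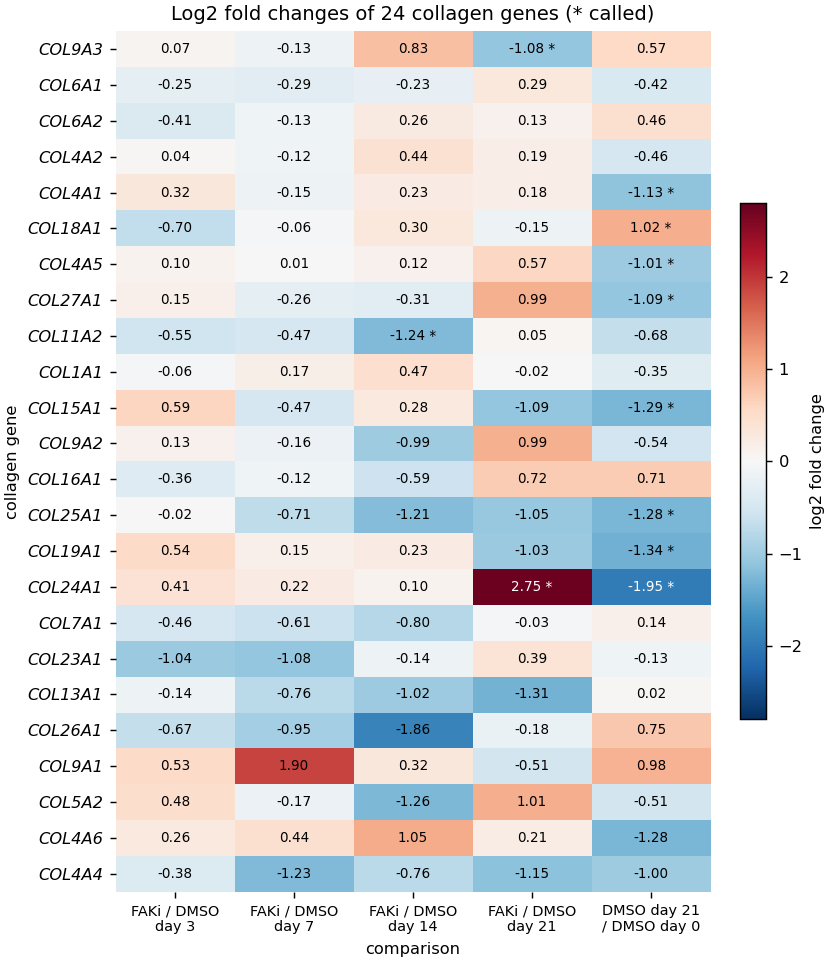
Log2 fold changes of the 24 collagen genes tested at day 21, ordered by mean RPKM, for FAKi against DMSO on each day and for DMSO at day 21 against day 0. Red is higher in the first group named, blue lower, and an asterisk marks a gene called. *COL24A1* is called in both day 21 columns, at 2.75 and -1.95, and these comparisons share the DMSO libraries of day 21.

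*COL24A1* encodes a fibrillar chain that is found beside type I collagen in the cornea and in developing bone, and had the largest fold change of the collagen genes tested at day 21. The gene (ENSG00000171502.15) spans positions 85729233 to 86156772 of chromosome 1 (hg38, minus strand), and no exon base of the counted transcript is shared with another gene. In DMSO at day 21 it was at 0.601, 0.625 and 0.880 CPM (21, 11 and 19 counts), and in FAKi at 4.26, 4.44 and 4.99 CPM (99, 84 and 174 counts). Every FAKi library was thus well above every DMSO library. The difference was 6.74-fold, or 2.75 ± 0.27 on the log2 scale (standard error; edgeR adjusted p = 0.00339). On the earlier days the treatments overlapped, with means of 2.43 and 3.21 CPM for DMSO and FAKi at day 3, 3.33 and 3.87 at day 7, and 4.98 and 5.37 at day 14. DMSO at day 0 was at 2.85, 2.61 and 2.64 CPM. The 3 DMSO libraries of day 21 were the lowest of all 27, and the FAKi libraries of day 21 lay within the range of those of days 7 and 14. *COL24A1* remained called at day 21 in all 18 alternatives run for it, among them the length and GC correction (2.55 ± 0.22, edgeR adjusted p = 0.000794).

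*COL27A1*, a fibrillar chain of cartilage and other tissues, was at 9.82, 12.1 and 13.7 CPM in DMSO and at 19.1, 24.2 and 25.0 CPM in FAKi at day 21. The groups did not overlap, and the FAKi values were near those of DMSO at day 0, which were 24.1, 25.4 and 25.9 CPM. Its log2 fold change of 0.99 ± 0.19 had an edgeR adjusted p of 0.0186 and was below the fold limit. Without DMSO day 21 replicate 3 it was 1.13 and was called, in a fit that called 18.7% of all genes tested. *COL5A2*, a chain of type V collagen, which regulates the width of type I fibrils, was at 0.887, 1.08 and 1.39 CPM in DMSO and at 2.28, 1.48 and 2.69 CPM in FAKi at day 21. These groups lay apart in the opposite direction from day 14, when DMSO was at 1.35, 1.30 and 1.57 CPM and FAKi at 0.451, 0.800 and 0.509 CPM. Its log2 fold changes of -1.26 ± 0.57 at day 14 and 1.01 ± 0.34 at day 21 had edgeR adjusted p of 0.169 and 0.0822, and the latter was called in the blocked fit (1.00 ± 0.33, edgeR adjusted p = 0.0413) but not in the blocked fit corrected for length and GC (0.78, edgeR adjusted p = 0.104), which called 8.36% of all genes tested. Without DMSO day 21 replicate 3 it was called at 1.24 (edgeR adjusted p = 0.00703).

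*COL11A2*, which encodes a chain of type XI collagen and lies on chromosome 6 from 33162694 to 33192467, was the member called at day 14. Its DMSO libraries were at 7.46, 10.9 and 8.87 CPM and its FAKi libraries at 4.21, 4.45 and 2.90 CPM. All FAKi libraries were below all DMSO libraries, by 2.35-fold (log2 fold change -1.24 ± 0.23, edgeR adjusted p = 0.000918). At day 3 FAKi was also lower without overlap (7.64, 6.74 and 6.55 against 11.9, 8.94 and 10.0 CPM), with a log2 fold change of -0.55 ± 0.19 and an edgeR adjusted p of 0.139. At day 21 the groups overlapped, with means of 5.43 ± 0.77 CPM in DMSO and 5.43 ± 1.73 CPM in FAKi (SD, n = 3). *COL1A1*, the main chain of type I collagen, overlapped between treatments on every day, with log2 fold changes from -0.06 to 0.47.

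**Figure D4:**
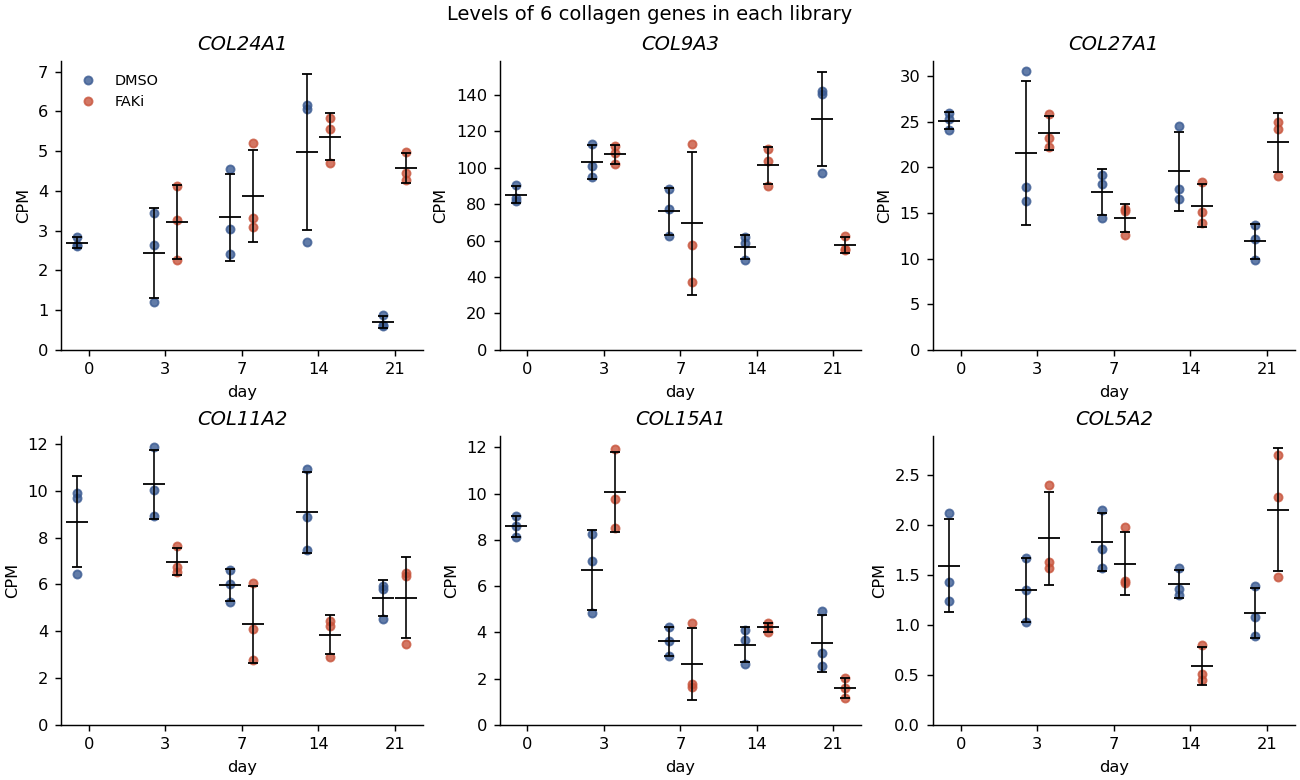
CPM of *COL24A1*, *COL9A3*, *COL27A1*, *COL11A2*, *COL15A1* and *COL5A2* by day. Points are libraries, blue for DMSO and red for FAKi, with the mean and SD of 3 libraries as bars and each axis starting at 0. *COL24A1* in DMSO at day 21 lies below 1 CPM, and *COL9A3* lies higher in FAKi at day 14 and lower at day 21.

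Among the fibril-associated genes *COL9A3* stood out (ENSG00000092758.18, plus strand of chromosome 20 from 62817050 to 62841159). At day 14 it was at 61.9, 58.8 and 49.2 CPM in DMSO and at 110, 104 and 90.2 CPM in FAKi. At day 21 it was at 141, 143 and 96.9 CPM in DMSO and at 54.7, 62.7 and 55.6 CPM in FAKi. Neither pair of groups overlapped, and FAKi was the higher at day 14 and the lower at day 21. The log2 fold change at day 14 was 0.83 ± 0.11 with an edgeR adjusted p of 3.41e-05, below the fold limit, and at day 21 *COL9A3* fell by 1.08 ± 0.17 on the log2 scale (2.12-fold, edgeR adjusted p = 0.00951). With the length and GC correction the day 21 value was -0.91 ± 0.10, and it was not called, with an edgeR adjusted p of 0.00154. The call was also lost without DMSO replicate 2 (-0.98, edgeR adjusted p = 0.0433) and without FAKi replicate 1 (-1.04, 0.0555), 2 (-1.15, 0.0646) or 3 (-1.05, 0.0685). At day 7 the FAKi libraries were at 113, 57.8 and 37.2 CPM, the highest being replicate 1, the library close to FAKi day 14. Exons of *TCFL5* on the opposite strand cover 6.21% of the counted transcript, and the strand setting of the counting is not stated.

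Its partner *COL9A2* was at 4.34, 3.02 and 1.83 CPM in DMSO and at 1.83, 1.39 and 1.41 CPM in FAKi at day 14, and at 1.60, 2.22 and 0.880 against 2.75, 2.75 and 3.38 CPM at day 21. In both cases *COL9A2* differed in the direction opposite to *COL9A3*. Its log2 fold changes of -0.99 ± 0.38 and 0.99 ± 0.34 had edgeR adjusted p of 0.0947 and 0.0865, and the second was called in the blocked fit (1.03, edgeR adjusted p = 0.0372). The ratio of *COL9A3* to *COL9A2* RPKM was 16.3, 22.4 and 30.9 in DMSO and 68.9, 85.3 and 73.2 in FAKi at day 14, and 101, 73.7 and 126 in DMSO and 22.8, 26.1 and 18.8 in FAKi at day 21. *COL9A1* was low and uneven, at 2.63 CPM in FAKi day 7 replicate 1 but 0.0823 and 0.236 CPM in the other FAKi libraries of that day, and at 2.19 to 2.65 CPM in FAKi at day 14. *COL12A1*, a long chain that coats type I fibrils, had 134 counts in all. It had 17, 0 and 26 counts in DMSO and 0 in all 3 FAKi libraries at day 14, so no fold is given for that day. *COL19A1*, a chain of basement membrane zones, was at 2.06, 2.33 and 3.57 CPM in DMSO and at 0.990, 0.952 and 1.75 CPM in FAKi at day 21, without overlap. Its log2 fold change of -1.03 ± 0.36 had an edgeR adjusted p of 0.0918, and in the blocked fit *COL19A1* was called at -1.06 (edgeR adjusted p = 0.0192). *COL16A1*, which lies at the surface of fibrils, was higher in FAKi at day 21 without overlap, by 0.72 ± 0.18 (edgeR adjusted p = 0.0386), below the fold limit.

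The most abundant type IV and type VI chains, *COL4A1*, *COL4A2*, *COL4A5*, *COL6A1* and *COL6A2*, were not called on any day. *COL4A1*, *COL4A2* and *COL4A5* had log2 fold changes between -0.15 and 0.57 over the 4 days, and 0 of the 5 network genes tested were called on any day. The largest of these values, 0.57 ± 0.35 for *COL4A5* at day 21, rested on DMSO libraries at 9.02, 8.86 and 19.7 CPM against 14.2, 15.3 and 24.5 CPM in FAKi, and the highest DMSO value was replicate 3, the library that stood apart. Without this library *COL4A5* was called (log2 fold change 1.09, edgeR adjusted p = 0.000123). *COL4A2* was at 61.3, 83.9 and 69.8 CPM in DMSO and at 104, 109 and 79 CPM in FAKi at day 14, overlapping in a single pair of libraries (log2 fold change 0.44 ± 0.13, edgeR adjusted p = 0.0273, below the fold limit). *COL4A4*, a chain of the basement membrane of the kidney filter, named after its values were seen, was at 0.805, 0.898 and 0.831 CPM in DMSO and at 0.0992, 0.453 and 0.531 CPM in FAKi at day 7. These groups did not overlap, but the log2 fold change of -1.23 ± 0.52 had an edgeR adjusted p of 0.553. It was -0.76 at day 14 and -1.15 at day 21 (edgeR adjusted p = 0.770 and 0.236). *COL4A6*, which can join *COL4A5* and was also named after its values were seen, had a log2 fold change of 1.05 ± 0.86 at day 14 (edgeR adjusted p = 0.522). *COL6A1* and *COL6A2* had log2 fold changes between -0.41 and 0.29. *COL6A2* was lower in all FAKi libraries of day 3 (84.6, 78.6 and 84.6 CPM) than in all DMSO libraries (98.2, 98.3 and 135 CPM), with an edgeR adjusted p of 0.183. *COL6A1* was lower in all FAKi libraries of day 7 (133, 139 and 95.9 CPM) than in all DMSO libraries (143, 155 and 151 CPM), with an edgeR adjusted p of 0.652. At day 21 beaded filament genes made up 41.9% of the summed collagen RPKM in DMSO and 52.7% in FAKi, and fibrillar genes 2.33% and 4.19%, both without overlap of the libraries. Fibril-associated genes made up 28.8% to 39.9% in the DMSO libraries and 19.1% to 20.7% in the FAKi libraries. Their summed RPKM averaged 54.0 in DMSO and 26.5 in FAKi, and that of the beaded filament genes 62.7 and 69.8. *COL9A3* alone averaged 52.1 RPKM in DMSO and 23.7 in FAKi, so the fibril-associated sum was mostly this gene. The shares are of a common sum, so a fall of any class raises the others. At day 14 each of these classes differed the other way without overlap, with beaded filament genes at 36.6% to 40.2% in FAKi and 45.2% to 49.1% in DMSO. At day 3 the beaded filament share was also lower in FAKi (34.7% to 36.3% against 40.1% to 44.7%).

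Of the multiplexins, which carry a collagen domain broken up by other sequence and are linked to basement membranes, *COL15A1* was at 3.09, 2.56 and 4.91 CPM in DMSO and at 1.16, 1.59 and 2.01 CPM in FAKi at day 21. The groups lay apart by a log2 fold change of -1.09 ± 0.34 (edgeR adjusted p = 0.0687), which was called in the blocked fit (-1.10 ± 0.27, edgeR adjusted p = 0.0121) and in the blocked fit corrected for length and GC (-1.26, edgeR adjusted p = 0.00602). At day 3 its FAKi libraries were above its DMSO libraries (8.50, 9.77 and 11.9 against 8.23, 7.08 and 4.83 CPM), with an edgeR adjusted p of 0.181. *COL18A1* was not called on any day, and its log2 fold change went from -0.70 at day 3 to 0.30 at day 14. Exons of *SLC19A1* on the opposite strand cover 23.7% of its counted transcript. Of the transmembrane chains, *COL25A1*, which is made by neurons and binds amyloid, was at 2.43, 2.84 and 5.65 CPM in DMSO and at 1.03, 1.75 and 2.26 CPM in FAKi at day 21. Its edgeR adjusted p was 0.124, and it was called in the blocked fit (-1.06 ± 0.27, edgeR adjusted p = 0.0133). *COL13A1*, named after its values were seen, a transmembrane chain found at cell contacts, was also lower in FAKi at day 21 without overlap (0.516, 0.635 and 0.373 against 0.916, 1.31 and 1.67 CPM, edgeR adjusted p = 0.0712). *COL17A1*, the chain of hemidesmosomes, had 20 counts in all.

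Several values moved with the treatment at day 21. The mitochondrial share was higher in all FAKi libraries than in all DMSO libraries, and DMSO replicate 3 was the nearest to them. The summed epithelial markers, mainly *KRT18*, were at 32.8 to 50.4 CPM in DMSO and 10.9 to 13.4 CPM in FAKi, and the summed fibroblast markers at 10.8 to 12.4 and 8.14 to 8.73 CPM. The 7 melanocyte markers summed to 11700 to 14000 CPM in DMSO and 14900 to 15000 CPM in FAKi, without overlap, and the 3 cartilage markers to 1.23 to 1.48 and 0.775 to 1.27 CPM, with overlap. At day 14 the melanocyte sum was 9440 to 10100 CPM in DMSO and 12200 to 12800 CPM in FAKi, and the epithelial sum 7.46 to 9.23 and 5.09 to 7.17 CPM, both without overlap. The mitochondrial share there overlapped, at 22.0% or more in DMSO and 20.7% to 22.1% in FAKi. The median log2 fold change of all genes with a mean of at least 1 CPM went from 0.01 in the lowest to -0.11 in the highest of 4 equal bins of GC share. At day 3 these medians were 0.26 and -0.30, and at day 14 -0.13 and 0.14. The part of the mitochondrial share and of these markers in the collagen values was not tested. At day 21 the fit corrected for length and GC called 5 collagen genes, beside 6.04% of all genes tested. Next to *COL24A1*, they were *COL9A2* (1.11 ± 0.31, edgeR adjusted p = 0.0408), *COL15A1* (-1.25 ± 0.28, 0.0216), *COL19A1* (-1.24 ± 0.27, 0.0197) and *COL25A1* (-1.21 ± 0.32, 0.0336).

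For the FAKi effect averaged over the 4 days, fitted on 24 libraries, *COL12A1* was the only collagen gene of 34 called (1.89% of all genes tested, 0.878% higher and 1.01% lower). Its log2 fold change was -2.36 ± 0.68 (edgeR adjusted p = 0.0206). DMSO had 35, 15, 43 and 7 counts and FAKi 8, 7, 0 and 3 counts over the 3 libraries of days 3, 7, 14 and 21, so that the value rests on few counts and in part on a group at 0. By the adjusted p alone, 6 collagen genes passed (15.7% of all genes tested). *COL24A1* was higher by 0.87 ± 0.18, and *COL11A2* (-0.56 ± 0.13), *COL25A1* (-0.75 ± 0.23), *COL26A1* (-0.92 ± 0.23) and *COL7A1* (-0.48 ± 0.14) were lower beside *COL12A1*. *COL7A1*, the chain of anchoring fibrils beneath epithelia, and *COL26A1* are named because of these values. Both were lower in all FAKi than in all DMSO libraries at days 3, 7 and 14. On these days 30.9%, 16.7% and 28.9% of all genes tested lay apart in either direction. The edgeR adjusted p was 0.277, 0.617 and 0.0367 for *COL7A1*, the last below the fold limit, and 0.239, 0.528 and 0.169 for *COL26A1*. *COL26A1* had few counts, with 30, 25 and 37 in DMSO and 9, 14 and 1 in FAKi at day 14. *COL7A1* was at 4.35, 4.89 and 5.12 CPM in DMSO and at 4.27, 3.37 and 1.71 CPM in FAKi at day 7, and at 7.18, 5.52 and 5.19 against 4.06, 3.38 and 2.82 CPM at day 14. At day 21 the groups overlapped for both genes.

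Whether the FAKi effect differed among the 4 days was tested by a day by treatment term in the same 24 libraries. It passed in 5 of 34 collagen genes (10.3% of all genes tested). They were *COL24A1* (edgeR adjusted p = 0.00519), *COL9A3* (0.00525), *COL5A2* (0.0148), *COL27A1* (0.0164) and *COL15A1* (0.0467). *COL9A3* and *COL5A2* differed in opposite directions at days 14 and 21, while *COL24A1* and *COL27A1* differed mainly at day 21. *COL15A1* lost the call when any of 19 libraries was left out, with edgeR adjusted p between 0.0555 and 0.101. These were all of the libraries except DMSO day 3 replicate 1, the FAKi libraries of day 7 and DMSO day 21 replicate 2. *COL27A1* lost it without DMSO day 21 replicate 1 (0.0602) or FAKi day 21 replicate 3 (0.0534). Without the 3 libraries that stood apart, the term passed in 16 collagen genes, among them all 5 of these and *COL4A1*, *COL4A2*, *COL4A5*, *COL6A1* and *COL6A2*. In that fit it passed in 38.4% of all genes tested (10510 of 27356). Of DMSO at day 3 that fit kept replicates 2 and 3, which lay 0.299 and 0.251 from DMSO day 21 replicate 3.

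The control cultures were compared over time as a background to the treatment. DMSO at day 21 differed from DMSO at day 0 in 8 of 27 collagen genes tested (23.3% of all genes, 13.2% higher and 10% lower), of which 7 fell and 1 rose. The libraries of both days lay apart in 17 of the 27 genes (58.1% of all genes). *COL24A1* fell by 1.95 ± 0.29 on the log2 scale (edgeR adjusted p = 0.00273), *COL19A1* by 1.34 ± 0.27, *COL15A1* by 1.29 ± 0.25, *COL25A1* by 1.28 ± 0.31, *COL4A1* by 1.13 ± 0.23, *COL27A1* by 1.09 ± 0.16 and *COL4A5* by 1.01 ± 0.30, each with an edgeR adjusted p of 0.0245 or less. *COL18A1* rose by 1.02 ± 0.16 (edgeR adjusted p = 0.00306). *COL4A1* was at 69.3, 74.9 and 69.7 CPM at day 0 and at 25.8, 25.7 and 46.8 CPM at day 21. *COL18A1* was at 19.9, 17.8 and 19.1 CPM at day 0 and at 41.1, 43.6 and 31.0 CPM at day 21. In both genes the third library of day 21 was nearest to day 0, and it is the one that stood apart. Without DMSO day 21 replicate 3, *COL4A1* was at -1.48, and without replicate 1 or 2 it was at -0.96 and -0.99 and was not called. The call was also lost for *COL18A1* without DMSO day 0 replicate 2 (0.97) or DMSO day 21 replicate 1 (0.99) or 2 (0.91), for *COL27A1* without DMSO day 21 replicate 1 (-0.95), for *COL25A1* without DMSO day 0 replicate 1 (edgeR adjusted p = 0.0503), and for *COL4A5* without any 1 library other than DMSO day 21 replicate 3 (edgeR adjusted p between 0.068 and 0.0807). *COL4A2* had a log2 fold change of -0.46 ± 0.18, with an edgeR adjusted p of 0.0604. The mitochondrial share was 17.0% to 18.8% in DMSO at day 0 and 5.49% to 9.75% at day 21. The summed epithelial markers were at 19.7 to 23.7 CPM at day 0 and 32.8 to 50.4 CPM at day 21, and the fibroblast markers at 8.97 to 10 and 10.8 to 12.4 CPM. The melanocyte markers summed to 10100 to 10500 CPM at day 0 and 11700 to 14000 CPM at day 21, and the cartilage markers to 3.26 to 3.59 and 1.23 to 1.48 CPM. None of these ranges overlapped between the days. Their part in the collagen values was not tested.

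Over all 5 days of DMSO, 13 of 31 collagen genes varied (49.9% of all genes tested), by edgeR's test over days. *COL15A1*, at 8.60, 9.05 and 8.12 CPM at day 0, was at 4.24, 2.99 and 3.61 CPM at day 7, and its libraries of days 7, 14 and 21 all lay below those of day 0 (edgeR adjusted p = 0.000767). *COL9A3* had means of 85.2, 103, 76.1, 56.7 and 127 CPM at days 0, 3, 7, 14 and 21 (edgeR adjusted p = 0.000268). With the length and GC correction *COL9A3* no longer passed, and neither did *COL6A2*, in a fit where 12277 of all 26193 genes tested passed. *COL1A1*, *COL6A1* and *COL5A2* were among those that did not pass.

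GC share moved with the change of the control cultures. Over all genes with a mean of at least 1 CPM, the median log2 fold change of DMSO day 21 against day 0 was -0.37, -0.17, 0.10 and 0.40 from the lowest to the highest of the 4 bins of GC share. *COL19A1* (41.0% GC), *COL25A1* (41.3%) and *COL24A1* (45.1%) lie in the 2 lower bins, and *COL18A1* (67.2%) in the highest. *COL27A1* (61.3% GC), *COL15A1* (55.1%), *COL4A1* (55.2%) and *COL4A5* (50.8%) fell, while the medians of their bins were positive. After the length and GC correction *COL24A1* was still called at -1.40 ± 0.26, *COL15A1* at -1.08 ± 0.21 and *COL18A1* at 1.04 ± 0.18. *COL27A1* (-0.88 ± 0.12), *COL4A1* (-0.81 ± 0.17), *COL19A1* (-0.73 ± 0.20) and *COL25A1* (-0.73 ± 0.22) kept an edgeR adjusted p of 0.0347 or less below the fold limit, and *COL4A5* (-0.62 ± 0.22) had an edgeR adjusted p of 0.0558. *COL9A3* moved from 0.57 to -0.04 and *COL6A2* from 0.46 to 0.08, while *COL9A2* was newly called at -1.03 ± 0.33 (edgeR adjusted p = 0.041). The corrected fit called 15.5% of all genes tested.

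**Figure D5:**
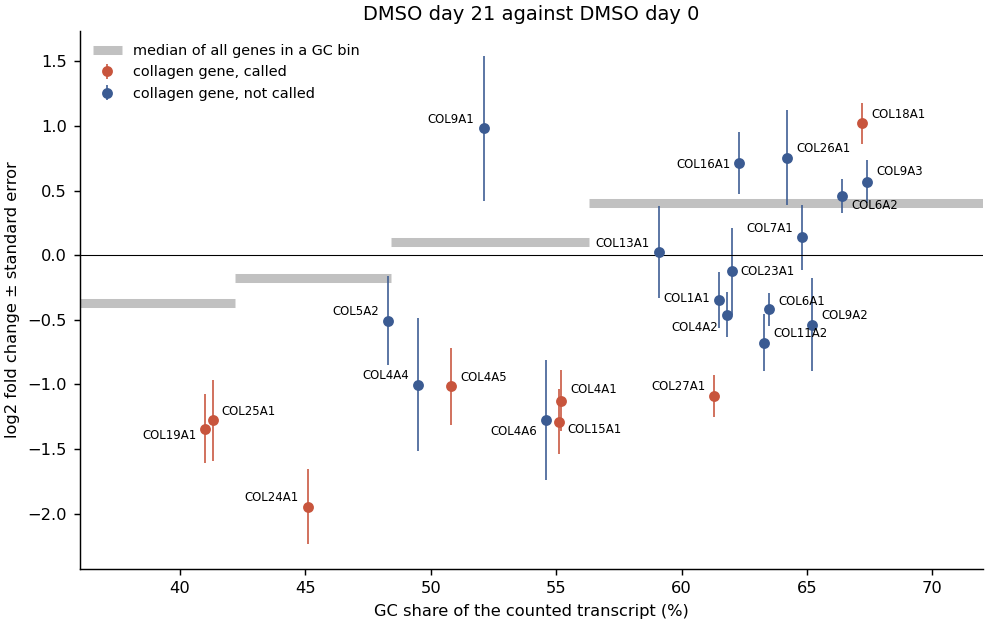
Log2 fold change of DMSO day 21 against DMSO day 0, with its standard error, against the GC share of the counted transcript, for the 24 collagen genes with counts in every library. Red points were called and blue points were not, and grey bars are the medians of all genes in each bin of GC share, -0.37, -0.17, 0.10 and 0.40. *COL24A1*, at 45.1% GC, lies lowest at -1.95, and *COL18A1*, at 67.2% GC, highest at 1.02.

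The enzymes, receptors and proteases that handle collagen were described from 4 lists of 74 genes. Of the 25 genes for chain modification and export, 0 were called in FAKi against DMSO on any day or in the mean. The test of the effect differing among the 4 days passed in 6 of the 25 (10.3% of all genes tested). They were *COLGALT1*, *MIA2*, *MIA3*, *P4HB*, *PLOD1* and *PPIB*. *SERPINH1*, the collagen chaperone of the endoplasmic reticulum, had log2 fold changes between -0.29 and -0.17 on the 4 days. The 20 genes for processing and cross-linking had *BGN* called lower at day 14 (13 tested) and *LUM* and *LOXL2* at day 21 (12 tested). The 13 receptors had *DDR2* and *ADGRG1* called lower at day 14, *ITGA1*, *MRC2* and *ADGRG1* at day 21, and *MRC2* and *ADGRG1* in the mean. Of these receptors 10 were tested at each of these days and 11 in the mean. Of the 16 degradation genes, 8 were tested at day 21, and *MMP15* was called lower. In all, 3 of 56 genes tested were called at day 14 (1.66% of all genes), all lower. At day 21 it was 6 of 54 (5.28% of all genes) and in the mean 2 of 59 (1.89% of all genes), all lower. The FAKi effect differed among the 4 days in 12 of 59 (10.3% of all genes), DMSO at day 21 differed from day 0 in 9 of 53 (2 higher and 7 lower; 23.3% of all genes), and 33 of 58 varied over the DMSO course (49.9% of all genes).

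*MRC2* encodes a receptor that takes up collagen for breakdown in lysosomes. It was at 4.70, 5.62 and 5.83 CPM in DMSO and at 1.42, 2.06 and 2.04 CPM in FAKi at day 21, a log2 fold change of -1.49 ± 0.24 (edgeR adjusted p = 0.0113), and its mean effect was -1.25 ± 0.24 (edgeR adjusted p = 0.000945). *BGN*, a small proteoglycan that binds collagen, was at 43.9, 46.9 and 35.6 CPM in DMSO and at 13.1, 12.7 and 15.3 CPM in FAKi at day 14 (-1.63 ± 0.13, edgeR adjusted p = 4.26e-08). In both genes no FAKi library reached a DMSO library. *MMP15*, a membrane-bound matrix metalloproteinase, was at 32.0, 33.4 and 30.9 CPM in DMSO and at 16.3, 14.1 and 15.9 CPM in FAKi at day 21, a log2 fold change just past the limit (SE 0.13, edgeR adjusted p = 0.00629). *ADGRG1*, an adhesion receptor whose ligands include type III collagen, had a mean effect of -1.68 ± 0.15 (edgeR adjusted p = 3.19e-08), while *COL3A1* itself had 15 counts in all libraries.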

How the data were processed

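RNA of 92.1 cells was sequenced from 27 TruSeq Stranded mRNA libraries. The authors trimmed reads with Trim Galore, checked them with FastQC 0.11.8, aligned them to hg38 with STAR 2.5.3a and deposited raw counts per gene, made with HOMER on the exons of 1 transcript for each gene of GENCODE 39, and tested them with DESeq2. The strand and multimapping settings are not stated. All 27 count columns were matched to samples by their labels.

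Groups were tested with edgeR 4.0.16 (quasi-likelihood, TMM scaling) on genes with at least 20 counts in total, with Benjamini-Hochberg adjustment over all genes tested and calls at an adjusted p no higher than 0.05 with a log2 fold change above 1 in size. The tests of the effect differing among days and of the DMSO course used the adjusted p alone. The study's own tool, DESeq2 (1.42.0), was an alternative, with other scalings, filters and thresholds, each library left out, and the replicate number as a block. Levels are CPM after TMM scaling, and RPKM by length. Total counts of 12161994 to 43651551 limit genes with few reads. A loess correction (span 0.5, prior count 2) for transcript length and GC share was chosen after seeing the data, and used GENCODE 44 sequences, which matched 43 of the 44 members. At day 21 same-numbered FAKi and DMSO libraries deviated together (r = 0.517, 0.191 and 0.709 over 16982 genes), and the numbers were taken to pair them. Other numberings were not compared, so this pairing was assumed.

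The members and gene lists were chosen with earlier results of these data known. Genes named were those called, the 12 of highest RPKM, those apart in the same direction on all 4 days and partner chains of these. *COL3A1*, *COL4A4*, *COL4A6*, *COL7A1*, *COL13A1*, *COL17A1*, *COL23A1* and *COL26A1* were named after their values were seen. Some of the tests were also run on simulated counts with a single spread for all genes and no libraries that stood apart. These runs do not check the tests on libraries like the present ones or on genes with few counts. Software was R 4.3.3, limma 3.58.1, Python 3.11.15 and pandas 2.3.3.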

Additional observations from a re-analysis of the deposited data

Results flagged for a closer look

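The FAKi effect differed among days 3, 7, 14 and 21 for 5 collagen genes by edgeR's test of the day by treatment term with Benjamini-Hochberg adjustment. The adjusted p was 0.00519 for *COL24A1*, 0.00525 for *COL9A3*, 0.0148 for *COL5A2*, 0.0164 for *COL27A1* and 0.0467 for *COL15A1*. The daily log2 fold changes at days 3, 7, 14 and 21 were 0.41, 0.22, 0.10 and 2.75 for *COL24A1*, and 0.07, -0.13, 0.83 and -1.08 for *COL9A3*. For *COL5A2* they were 0.48, -0.17, -1.26 and 1.01, for *COL27A1* 0.15, -0.26, -0.31 and 0.99, and for *COL15A1* 0.59, -0.47, 0.28 and -1.09. With 3 libraries a group, single values of a gene were not screened for extremes, while whole libraries were compared by distance and left out in turn.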

How the results depend on the processing

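Of 723 values of single genes under an alternative, 648 stayed on the same side of the threshold, 75 lost the call and 0 turned direction. The number of collagen genes called moved as follows, with small moves, such as from 2 to 3 at day 21, left out. At day 14 (1 called) it was 2 with upper quartile scaling, under a minimum of 10 counts per library and under the length and GC correction, 3 with no count filter, and 4 with all 27 libraries fitted together or by the adjusted p alone. At day 21 (2 called) it was 4 with no count filter, all 27 libraries, DESeq2 or the adjusted p alone, 5 with the length and GC correction, with or without the replicate block, and 7 with the replicate block. For the mean effect (1 called) it was 0 with that minimum or with the adjusted p limited to 0.01, 2 without the 3 libraries that stood apart, and 6 by the adjusted p alone. For the effect differing among days (5 called) it was 2 at the 0.01 limit, 8 with no filter, the minimum of 10 counts or all 27 libraries, 9 with the correction, 10 with DESeq2 and 16 without the 3 libraries. For DMSO at day 21 against day 0 (8 called) it was 4 with the correction and 13 by the adjusted p alone. Over all genes tested, calls went from 388 to between 375 and 2918 at day 14, from 1226 to between 1401 and 2692 at day 21 (2076 with the block), from 528 to between 81 and 4371 for the mean, from 2881 to between 794 and 10510 for the effect differing among days (5206 with DESeq2), and from 5177 to 3442 and 9986 for DMSO, under these alternatives. The cause was not tested.

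Leaving out each library in turn gave 0 to 1 calls at days 3 and 7, 1 to 2 at day 14, 1 to 5 at day 21, 1 to 2 for the mean, 3 to 8 for the effect differing among days, 4 to 10 for DMSO at day 21 against day 0 and 10 to 16 over the DMSO course (13 called). Where a group then held 2 libraries, the spread was pooled over the fit. Over all genes tested these fits called 0 to 2765 at day 3 and 0 to 248 at day 7. They called 275 to 445 at day 14 and 52 to 4248 at day 21. For the mean it was 376 to 848, and for the effect differing among days 1574 to 6046. For DMSO at day 21 against day 0 it was 3402 to 7999, and over the DMSO course 9653 to 14770.

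On the other days the deviations of same-numbered libraries correlated between -0.176 and 0.124. Those of DMSO at days 0 and 21 correlated between -0.0194 and 0.233. With the replicate block, 0 collagen genes were called at days 3 and 7, 1 at day 14, 1 in the mean, 6 for the effect differing among days, 8 for DMSO at day 21 against day 0 and 11 over the DMSO course. Over all genes tested the block called 0 at days 3 and 7, 416 of 23443 at day 14 and 428 of 27897 in the mean. It called 3523 of 27897 for the effect differing among days and 5055 of 22259 for DMSO at day 21 against day 0. Over the DMSO course it called 11372 of 26193. Of the 44 genes, 17 had under 100 counts in all.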
